A study of Mus musculus with 2 samples.

Results

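CpG-rich promoters without a DNase I peak found in both libraries were described in hindbrain of healthy mouse embryos (Mus musculus, strain B6NCrl, embryonic day 14.5). The tissue pooled males and females, 2 biological replicates were sequenced, and no second tissue, age or treatment was compared. A promoter was a window of 1 kb either side of every annotated start site (TSS) of a protein-coding gene on chromosomes 1 to 19, and it was CpG-rich where the CpG observed/expected ratio, from 500 bp before to 500 bp after the outermost TSS, was 0.6 or more. A shared peak was a replicate 1 peak that overlapped a replicate 2 peak by at least 1 bp and had its midpoint inside the window. Of 20807 protein-coding promoters, 10156 were CpG-rich, and 327 of these held no shared peak. The other 9829 CpG-rich promoters (96.8%) held one. The members were thus selected by the peak calls themselves, so their peak states and scores are given as a description and without a test.

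DNase I cuts DNA where nucleosomes have been displaced, and short clusters of cuts mark promoters, enhancers and insulators. In vertebrates most CpG dinucleotides have been lost through methylation and mutation, while CpG islands stay unmethylated and mark the promoters of housekeeping genes and of many developmental regulators. CpG-island promoters are usually open in most cell types, those of developmental regulators that are off carry Polycomb proteins instead of the transcription machinery, and those of germ line genes are among the few that are silenced by DNA methylation in the mouse embryo. Neither methylation nor Polycomb binding was measured here.

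Sequences are printed for 4 kinds of member, so that CpG density, shared letters and duplicated sequence can be seen beside the peak calls. All were read from the GRCm38 (mm10) assembly on the strand of the gene, 5′ to 3′, with every CpG in capitals, and none overlaps an annotated exon. The first 3 are the 150 bases upstream of the outermost TSS of germ line genes without a peak in either library. Hormad1 and Sycp1 encode proteins of the meiotic chromosome axis and synaptonemal complex, and Slc25a31 encodes the adenine nucleotide carrier of sperm mitochondria.
Hormad1 upstream, chr3:95559527-95559676, plus strand: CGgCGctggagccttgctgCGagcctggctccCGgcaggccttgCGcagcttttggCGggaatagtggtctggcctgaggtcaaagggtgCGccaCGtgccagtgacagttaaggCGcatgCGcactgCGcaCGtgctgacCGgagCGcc
Slc25a31 upstream, chr3:40708705-40708854, plus strand: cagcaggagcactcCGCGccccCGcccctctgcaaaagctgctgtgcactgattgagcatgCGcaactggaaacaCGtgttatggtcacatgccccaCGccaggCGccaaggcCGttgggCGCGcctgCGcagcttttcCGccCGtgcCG
Sycp1 upstream, chr3:102936101-102936250, minus strand: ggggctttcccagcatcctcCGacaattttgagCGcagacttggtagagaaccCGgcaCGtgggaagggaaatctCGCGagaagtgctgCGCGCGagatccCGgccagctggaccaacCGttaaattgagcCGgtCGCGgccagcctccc
All 3 held the E-box letters CACGTG at least once, with 14 CpGs each. They are examples and do not stand for every germ line member. Of the 19 listed germ line members, 10 held CACGTG from 250 bases before to 50 after the outermost TSS. Among those without a peak, Spo11, Sycp2, Asz1, Hsf5, Rpl10l, Hist1h2ba and Ddx4 did not. The next pair is the 150 bases upstream of the outermost TSS at transcription factor genes without a peak in either library. Hoxd11 is a homeobox gene of the posterior body axis, and Foxa1 is a pioneer factor of endoderm and floor plate. These held 8 and 18 CpGs. Hoxd11 also held CACGTG once. A shared peak lay 1010 bp from the Foxa1 TSS, just outside its window.
Hoxd11 upstream, chr2:74682173-74682322, plus strand: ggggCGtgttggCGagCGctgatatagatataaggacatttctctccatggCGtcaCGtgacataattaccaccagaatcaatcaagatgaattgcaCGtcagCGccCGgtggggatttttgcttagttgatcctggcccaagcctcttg
Foxa1 upstream, chr12:57546122-57546271, minus strand: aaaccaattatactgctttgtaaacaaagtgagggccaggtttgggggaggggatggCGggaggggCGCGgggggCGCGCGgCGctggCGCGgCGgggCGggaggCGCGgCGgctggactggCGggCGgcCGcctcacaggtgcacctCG
A pair of histone genes without a peak shows duplicated sequence. Hist1h2bq and Hist1h2br, both encoding histone H2B, shared a run of 148 identical bases within these 150.
Hist1h2bq upstream, chr13:21810198-21810347, minus strand: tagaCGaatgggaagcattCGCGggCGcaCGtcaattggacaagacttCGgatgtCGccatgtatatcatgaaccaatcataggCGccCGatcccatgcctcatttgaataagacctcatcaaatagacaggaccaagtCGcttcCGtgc
Hist1h2br upstream, chr13:21833593-21833742, plus strand: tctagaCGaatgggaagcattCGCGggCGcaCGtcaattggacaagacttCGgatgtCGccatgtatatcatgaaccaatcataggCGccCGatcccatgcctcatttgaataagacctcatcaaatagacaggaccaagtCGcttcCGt
The remaining sequences are 150 bp peaks called in 1 library only. Barhl2 and Dlx6, homeobox factors of neurons, had the peaks shown in replicate 1. Rps19, a protein of the small ribosomal subunit, had 1 peak in replicate 1 and 2 in replicate 2. None of them overlapped a peak of the other library. Of the replicate 2 peaks, the one with the higher score is shown.
Barhl2 replicate 1 peak, chr5:106458576-106458725, minus strand: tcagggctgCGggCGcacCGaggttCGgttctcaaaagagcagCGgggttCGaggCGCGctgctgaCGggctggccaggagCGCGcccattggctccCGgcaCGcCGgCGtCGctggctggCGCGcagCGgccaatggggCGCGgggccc
Dlx6 replicate 1 peak, chr6:6862836-6862985, plus strand: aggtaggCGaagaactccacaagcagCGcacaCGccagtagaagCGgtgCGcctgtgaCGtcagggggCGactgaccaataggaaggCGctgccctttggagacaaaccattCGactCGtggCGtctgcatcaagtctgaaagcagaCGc
Rps19 replicate 1 peak, chr7:24884216-24884365, plus strand: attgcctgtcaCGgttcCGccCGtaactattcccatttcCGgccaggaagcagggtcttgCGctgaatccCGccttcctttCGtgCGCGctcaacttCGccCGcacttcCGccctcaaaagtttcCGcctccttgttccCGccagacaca
Rps19 replicate 2 peak, chr7:24884036-24884185, plus strand: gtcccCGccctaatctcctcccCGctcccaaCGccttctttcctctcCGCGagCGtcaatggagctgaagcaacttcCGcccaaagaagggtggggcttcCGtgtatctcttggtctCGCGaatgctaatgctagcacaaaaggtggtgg

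The members fell into 4 states. No peak of either library had its midpoint in the window of 139 members (42.5% of members, Wilson 95% interval 37.3 to 47.9%). Only replicate 1 had a peak in 151 (46.2%, 40.8 to 51.6%), only replicate 2 in 11 (3.36%, 1.89 to 5.92%), and both had peaks that did not overlap inside the window in 26 (7.95%, 5.48 to 11.4%). As shares of all CpG-rich promoters, 3.22% had no shared peak, 1.37% had no peak, 1.49% had a replicate 1 peak only and 0.108% a replicate 2 peak only. These intervals cover counting error alone. In CpG-poor promoters, 6765 of 10651 (63.5%) held no shared peak and 5702 (53.5%) held no peak at all. Replicate 1 had 263679 peaks and replicate 2 had 148804, a ratio of 1.77, so a peak in replicate 1 only and a peak missed in replicate 2 cannot be told apart. In bulk tissue, moreover, a site open in few cells and a site weakly open in many cannot be told apart.

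Genes of neural progenitors and neurons were counted beside housekeeping genes. Since 96.8% of all CpG-rich promoters held a shared peak, these counts cannot tell hindbrain from another tissue. All 14 CpG-rich promoters on the progenitor list and all 13 on the pan-neuronal list held a shared peak, so none was a member. Of the 8 CpG-rich promoters of Hox groups 1 to 5, which are expressed in hindbrain, 7 held a shared peak and Hoxa3 held none. The only TSS listed for Hoxa3 lay next to Hoxa6 in gene order, at the start of a gene of 44.3 kb. Its window covered that start alone. All 74 mitochondrial ribosomal protein genes and all 108 proteasome and respiratory chain genes with CpG-rich promoters also held one.

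The share of CpG-rich promoters that were members was counted for each of 31 gene classes. Every one of the 15 CpG-rich promoters of Hox groups 6 to 13 lacked a shared peak, against 3.22% of all CpG-rich promoters. The share was 39% for germ cell and meiosis genes (16 of 41), 38.5% for skeletal and heart muscle (5 of 13), 35.3% for blood and immune cells (6 of 17), 32.1% for liver, gut, pancreas, lung and kidney (9 of 28) and 30% for sperm and retrogene paralogues (3 of 10). It was 29.2% for forkhead, SOX, T-box, PAX and GATA factors (19 of 65), 27.3% for clustered protocadherins of neurons (6 of 22), 25% for limb, skeleton and mesenchyme (9 of 36), 23.5% for homeobox genes outside the Hox clusters (24 of 102), 22.2% for epidermis and epithelia (4 of 18) and 21.2% for WNT, FGF, BMP and hedgehog signals (7 of 33). Genes that belong to several of these classes, such as Gata6, are counted in each. All 5 muscle members were also in families of transcription factors, as were Gata2, Gata3, Pax5 and Tbx21 among blood members. Of the 9 liver, gut, pancreas, lung and kidney members, only Wt1 was in no factor family or signal class. Of the limb members, only Col2a1 and Ihh were in no factor family. Most members of the muscle, blood, liver and limb classes were thus also counted in a factor family or signal class. The share of such genes among all CpG-rich promoters on these tissue lists was not counted. Among genes in none of the classes, 139 of 8532 (1.63%) were members.

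**Figure D1:**
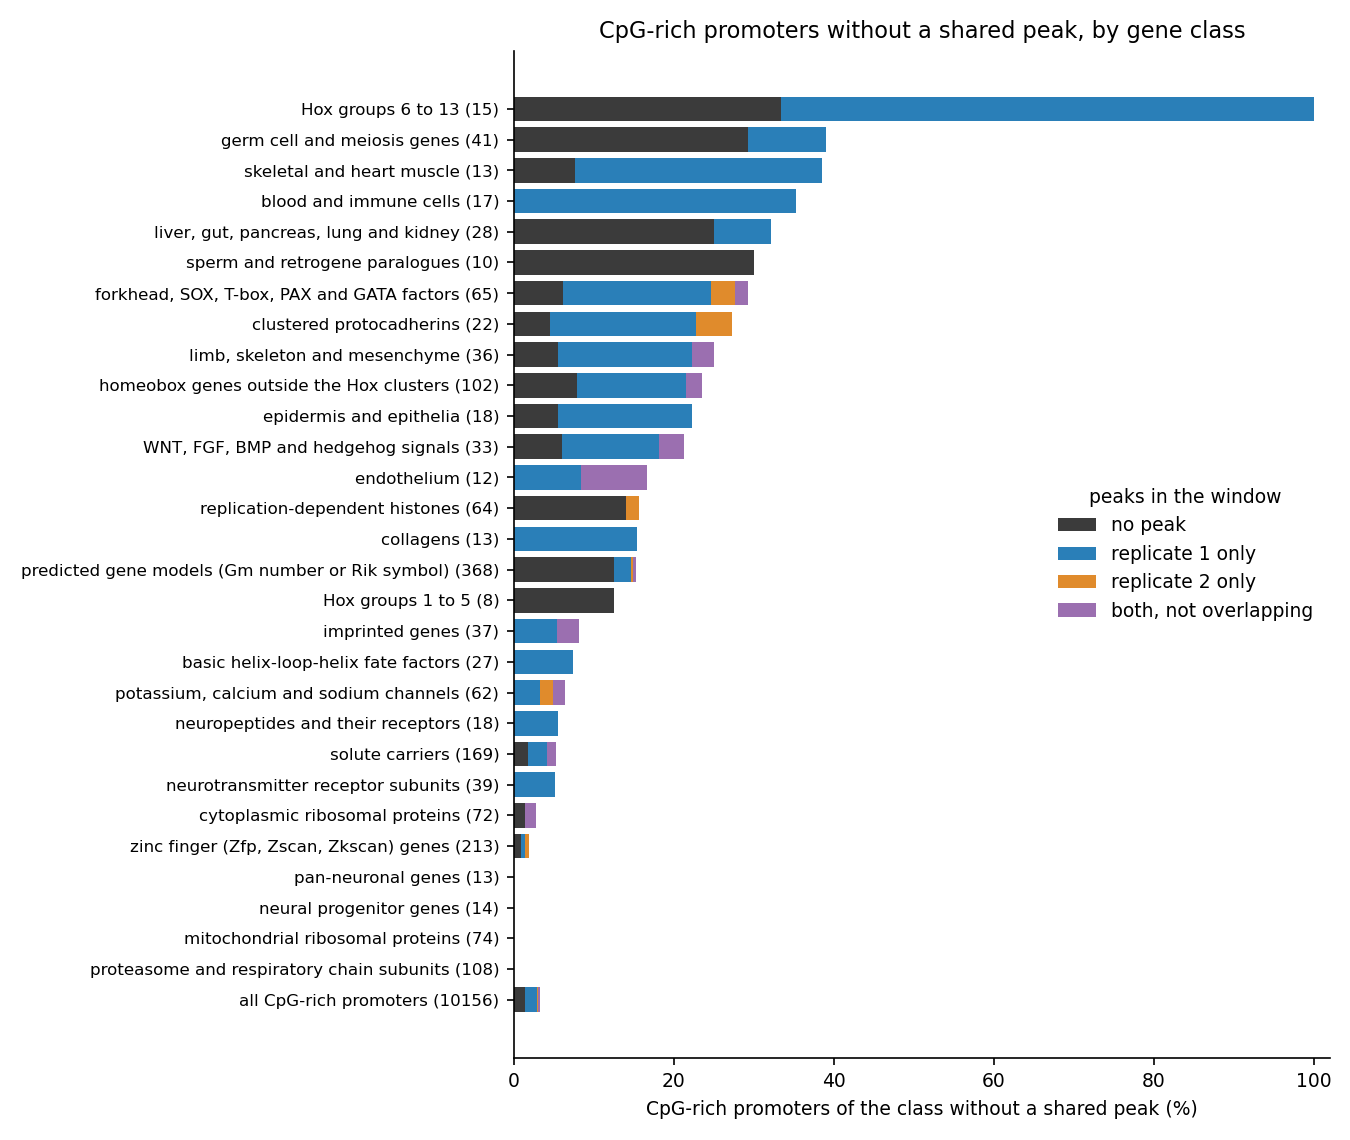
Share of the CpG-rich promoters of each gene class without a shared peak (x axis, %), split by the peaks in the window. The number of CpG-rich promoters follows each class name, classes with fewer than 8 are left out, and the bottom bar is all 10156. Hox groups 6 to 13 reach 100%, germ cell and meiosis genes 39%, and 4 classes of neural and housekeeping genes stand at 0.

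Transcription factors of pattern and cell fate accounted for many members. Of the 217 CpG-rich promoters on the lists of Hox, homeobox, forkhead, SOX, T-box, PAX, GATA and basic helix-loop-helix fate factors, 61 (28.1%) were members. The lists are not complete, and Sim2, a basic helix-loop-helix PAS factor named below, is on none of them. The counts that follow are for the 61. Of the 61, 38 had a replicate 1 peak only, 18 had no peak, 2 had a replicate 2 peak only and 3 had peaks of both. Counted by library, 41 of the 61 held a replicate 1 peak and 5 held a replicate 2 peak. None of the 18 without a peak lay in repeated sequence, and the highest repeated share among the 61 was 13.1%.

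Hox genes of groups 6 to 13 specify the trunk and tail, posterior to the hindbrain. Their 15 CpG-rich promoters lay on all 4 clusters. Hoxb8 had a replicate 1 peak of score 84 (percentile 84.0 of all replicate 1 peaks), Hoxa6 one of 83 (83.5), Hoxd10 of 79 (81.2), Hoxb9 of 77 (80.0) and Hoxb7 of 74 (78.1). Hoxd9 had 67, Hoxd13 63, Hoxc8 58, Hoxc13 49 and Hoxa13 35. Replicate 2 had neither a peak nor a hotspot, the broader region of enriched cutting, at any of the 15. Hoxa11, Hoxc11, Hoxc12, Hoxd8 and Hoxd11 had no peak in either library. The CpG ratio did not follow the state, since it was 0.914 at Hoxd11, which had no peak, and 0.905 at Hoxd13, which had one. The nearest shared peak lay a median of 4664 bp from the nearest TSS of these 15 genes, and between 2224 bp at Hoxd8 and 42712 bp at Hoxc13.

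Homeobox genes outside the Hox clusters had 14 members with a replicate 1 peak only, 8 with no peak and 2 with peaks of both. The highest replicate 1 scores were 85 at Dlx6 and 77 at Dlx2, regulators of forebrain interneurons, and 82 at Barhl2, whose CpG ratio of 1.07 was among the highest of all members. Hmx3, an inner ear factor, had 60, and Nkx2-2, which patterns the ventral neural tube, had 55. No peak of either library was called at Cdx1 and Cdx2 (gut and posterior axis), Dlx1, Nkx2-1 (thyroid, lung and ventral forebrain), Six3 (anterior forebrain and eye), Pitx1 (hindlimb), Phox2a (visceral motor and noradrenergic neurons) or Mnx1 (motor neurons). Mnx1 lay at the edge of the rule, with a shared peak 1001 bp from its TSS and hotspots of both libraries in its window.

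Among forkhead, SOX, T-box, PAX and GATA factors, 12 members had a replicate 1 peak only. Gata6 scored 81, Gata2 72 and Gata3 70, all factors of blood, heart or endoderm, and Gata3 and Gata2 also act in neurons of the hindbrain. Gata3 also had a replicate 2 hotspot in its window, and a shared peak 1111 bp from its TSS, just outside it. Tbx20, a heart factor, scored 69, Foxf1, a factor of gut and lung mesenchyme, 65, and T, which marks early mesoderm and notochord, 51. Tbx1, a factor of the pharyngeal arches, had a replicate 2 peak only. Foxa1, Foxr1, Gata4 and Pax1 had no peak. Foxa1 lay at the edge of the rule, with a shared peak 1010 bp from its TSS and hotspots of both libraries in its window. Foxd1, a factor of kidney stroma, had replicate 1 peaks of 81 and 76, and a replicate 2 peak of 37 whose midpoint lay 900 bp from the nearest of them.

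Of the 7 members among secreted developmental signals, 4 had a replicate 1 peak only, 2 had no peak and 1 had peaks of both. Ihh, the hedgehog signal of cartilage and gut, had a replicate 1 peak of 65, Gdf7, a signal of the roof plate, 52, Bmp8b 38 and Fgf4 28. Fgf8, the signal of the midbrain-hindbrain boundary at earlier stages, and Wnt3a, a dorsal midline and tail bud signal, had no peak. Wnt6 had peaks of both libraries, the strongest scoring 55 in replicate 1 and 28 in replicate 2, and the nearest pair of midpoints lay 160 bp apart.

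Genes of other tissues that were not counted among the factor families above also held members. Fli1, an endothelial and blood cell factor, scored 64 in replicate 1 only, and Irf5, an interferon regulatory factor of immune cells, 54. Col2a1, the collagen of cartilage, scored 72 with a hotspot at the upper limit of the deposited scale. St14, Ap1m2 and Pkp1, genes of epithelia, scored 58, 40 and 36. Ap1m2 had hotspots of both libraries at the upper limit of the deposited scale, and a shared peak 1154 bp from its nearest TSS, just outside the window. Wt1, a factor of kidney and gonad, and Ppl, a protein of the cornified envelope, had no peak. With the factor family members of these tissues included, all 6 blood and immune members had a replicate 1 peak, and 7 of the 9 liver, gut, pancreas, lung and kidney members had none.

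**Figure D2:**
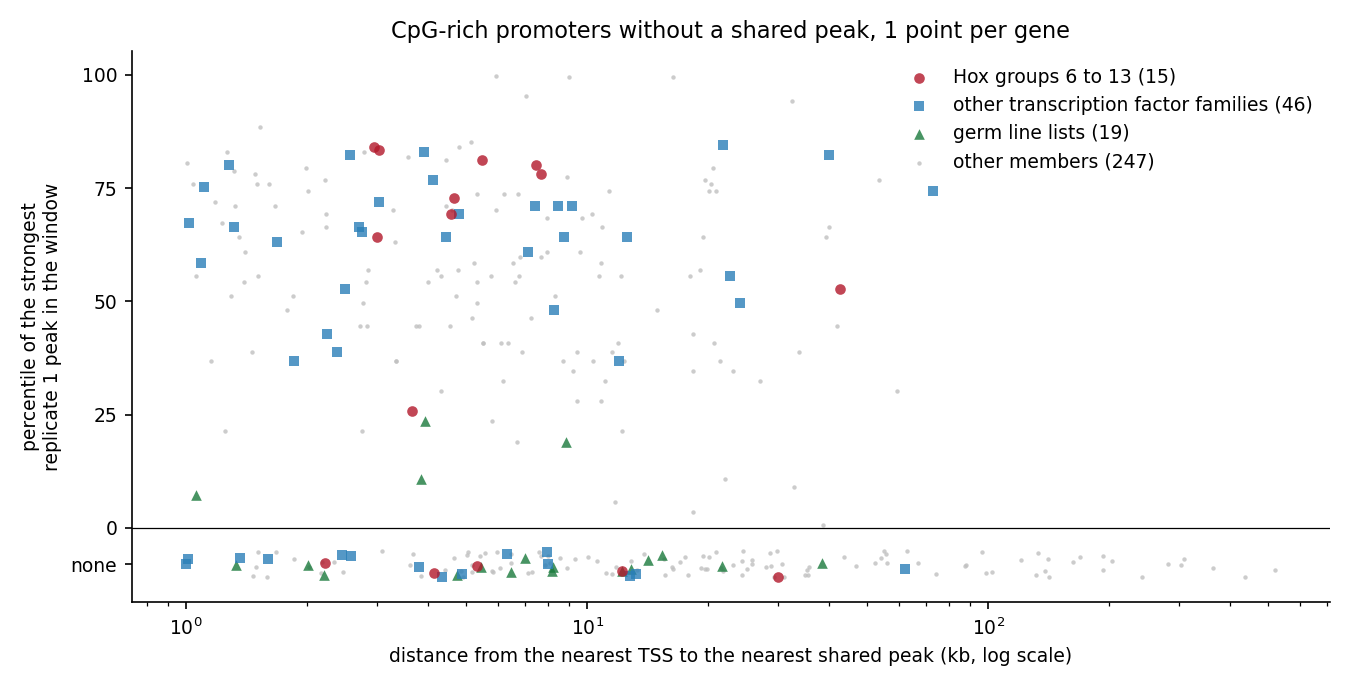
Each of the 327 members by the distance from its nearest TSS to the nearest shared peak (x axis, kb, log scale) and the percentile of its strongest replicate 1 peak among all replicate 1 peaks (y axis). Members without a replicate 1 peak are spread around "none". Hox groups 6 to 13 with a peak lie between percentiles 25.8 and 84.0, and the 4 germ line members with a peak between 7.3 and 23.5.

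Most germ line members had no peak in either library. Over both germ line lists, 19 of 51 CpG-rich promoters (37.3%) were members, of which 15 had no peak, 4 had a replicate 1 peak only, and none had a replicate 2 peak. The 15 include Ddx4, the germ cell RNA helicase, Mael and Asz1 of the piRNA pathway, Stk31, Spo11, which makes the DNA breaks of meiosis, Sycp1, Sycp2, Sycp3, Tex12 and Hormad1 of the meiotic chromosome axis and synaptonemal complex, Fkbp6 and Hsf5, and from the sperm list Hist1h2ba, Rpl10l and Slc25a31. The 4 with a replicate 1 peak had low scores, 34 at Tdrd1, 32 at Meioc, 28 at Mov10l1 and 26 at Adad1. The 4 lay at percentiles 23.5, 19, 10.7 and 7.3 of replicate 1 peaks, whereas the 38 factor family members with a replicate 1 peak only had a median percentile of 67.8, from 25.8 to 84.6. Adad1, the lowest of the 4, had a replicate 1 hotspot at the upper limit of the deposited scale and also a replicate 2 hotspot. A shared peak lay 1056 bp from its nearest TSS, just outside the window. None of the 19 lay mainly in repeated sequence, the highest repeated share being 26.9% at Rpl10l.

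A further 15 germ line genes stood on the member list but not on the germ line lists, and were read off it after the members were known. Papolb, a testis poly(A) polymerase, D1Pas1, an RNA helicase of spermatocytes, Rbmxl2 and Naa11, testis paralogues of ubiquitous genes, Rnf212, Ankrd31, Pnldc1, Dkkl1, Foxr1 and Tcte3 had no peak, and Tcte3 lay in repeated sequence. Zfp541, a regulator of meiotic prophase, Henmt1, Tcfl5, Dmrt1 and Zmynd15 had a replicate 1 peak only. The Zfp541 peak scored 86 (percentile 85.1), that of Henmt1 69, of Dmrt1 60, of Tcfl5 46 and of Zmynd15 42. All 5 were above every replicate 1 peak of the 19 listed members, so the low scores given above hold for the 4 on the lists only. Rbmxl2 had a CpG ratio of 0.945, the highest of any member without a peak whose sequence was not repeated.

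Letters of known motifs were counted in 300 bases, from 250 before to 50 after the outermost TSS, on both strands. The E-box CACGTG, bound by MYC, MAX and USF proteins, stood in 10 of the 19 germ line members (52.6%), against 4 of 32 germ line promoters with a shared peak (12.5%), 10.8% of all CpG-rich promoters with a shared peak and 7.84% of all protein-coding promoters. The NRF1 core GCGCATGC stood in 31.6% of the germ line members, against 3.12% of germ line promoters with a shared peak and 6.27% of all with one. The E2F letters GGCGGGAA stood in 26.3%, against 9.38% and 5.05%. Hormad1 held all 3 of these in the 150 bases printed above. Over 500 bases either side of the TSS, the E-box stood in 73.7% of germ line members, against 43.8% of germ line promoters with a shared peak, and the E2F letters in 26.3% against 15.6%. Hits can overlap between motifs, and 19 promoters are few.

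In members with a replicate 1 peak only, several other letters were rare. The ETS letters CCGGAAG stood in 3 of 151 (1.99%), against 1906 of 9829 CpG-rich promoters with a shared peak (19.4%) and 11.4% of all protein-coding promoters. The YY1 letters AAGATGGCG and the element TCTCGCGA stood in none of the 151, against 3.27% and 2.61% of those with a shared peak. The NRF1 core stood in 1.32%, against 6.27%. The TATA box TATAAA was the other way round, at 12.6%, against 5.92% of those with a shared peak and 12.6% of all protein-coding promoters, and at 21.9% against 18% over 500 bases either side. The SP and KLF letters GGGCGG stood in 68.9%, against 71.9%. Members without a peak and outside repeated sequence held the ETS letters in 13.3%, the TATA box in 17.3% and GGGCGG in 54.7%. A match is a run of letters, and binding was not measured.

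**Figure D3:**
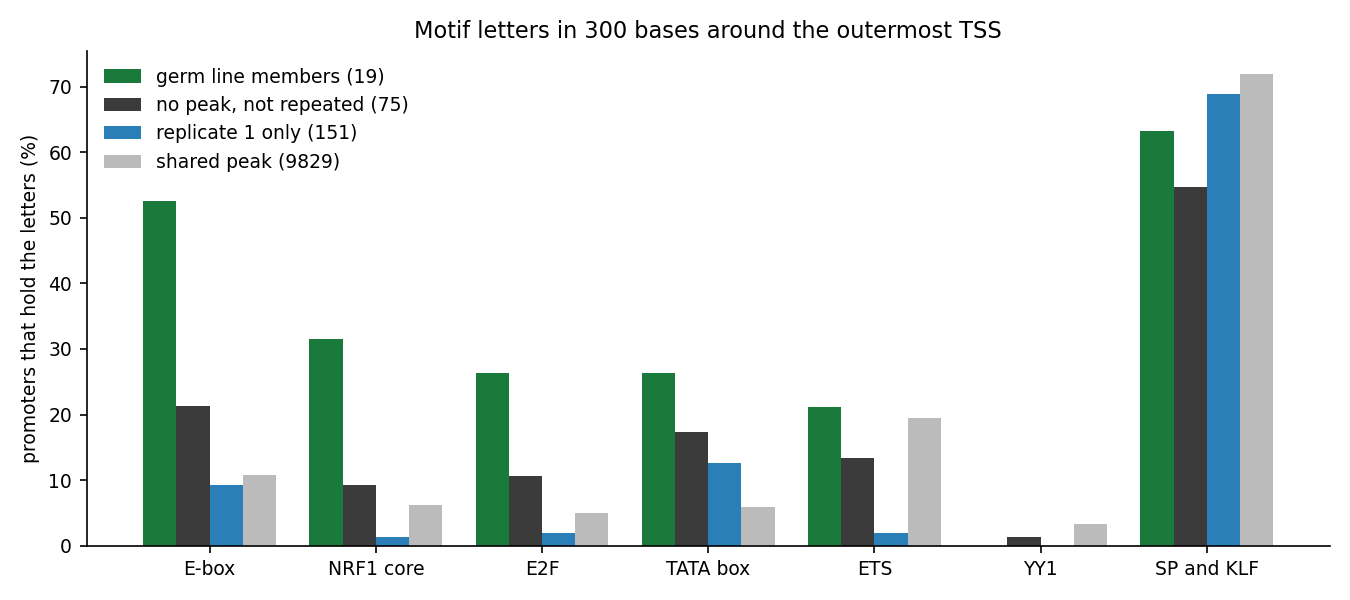
Percentage of promoters that hold each motif's letters in 300 bases around the outermost TSS (y axis), for germ line members, members without a peak outside repeated sequence, members with a replicate 1 peak only and CpG-rich promoters with a shared peak (n in the legend). The germ line members stand at 52.6% for the E-box, and members with a replicate 1 peak only at 1.99% for ETS.

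Repeated sequence marked a large share of the promoters without any peak. It was measured as the percentage of 31-base words within 500 bp of the TSS that occur more than once on the assembled chromosomes. At least 50% of words were repeated in 64 of the 139 members without a peak (46.0%) and in 8 of the 151 with a replicate 1 peak only (5.3%), against 58 of the 9829 promoters with a shared peak (0.59%). Of the 59 CpG-rich promoters with 90 to 100% of words repeated, 58 were members and 56 had no peak. Of the 7789 promoters with under 1% repeated, 178 (2.29%) were members. How reads that match several places were treated is not given in the sources used here, so closed chromatin and unmapped reads cannot be told apart at these 64 promoters.

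Of the 64 repeated promoters without a peak, 38 belonged to gene models with a Gm number or Rik symbol. Such predicted gene models made up 368 of all 10156 CpG-rich promoters, and 56 of the 368 (15.2%) were members. At 8 of the 64, the runs of Gm models on chromosome 9, 93.6 to 99.2% of bases were masked in the assembly as repeats. Of the 10 replication-dependent histone members, 8 lay in repeated sequence, among them Hist1h2ap, Hist1h2ao, Hist1h2bq and Hist1h2br, whose CpG ratios of 0.93 to 0.94 were among the highest of members without a peak. The remaining 2 histone members, Hist1h2ba and Hist1h2aa, were below the limit of 50% repeated words (17.9% and 5.3%) and had no peak. Hist1h2ba encodes the H2B variant of spermatogenic cells. The other 54 replication-dependent histone genes with CpG-rich promoters held a shared peak.

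**Figure D4:**
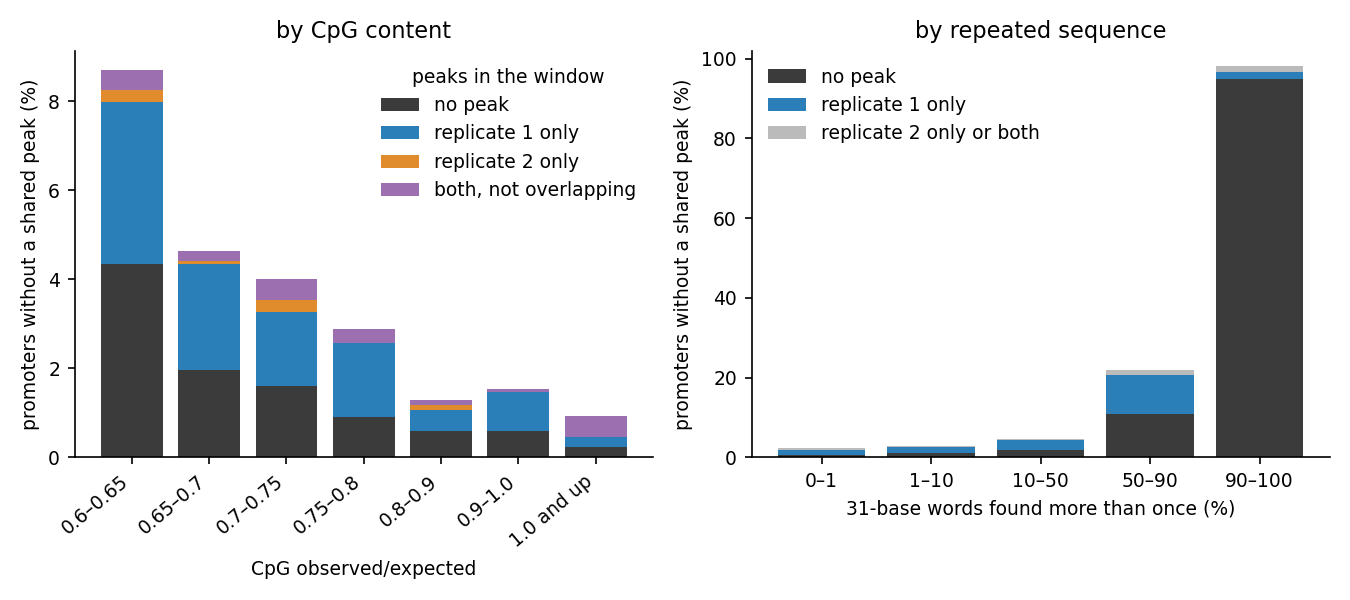
Percentage of CpG-rich promoters without a shared peak (y axes), by CpG observed/expected ratio on the left and by the share of 31-base words found more than once on the right, split by the peaks in the window. The share falls to 0.926% at ratios of 1.0 and up, against 8.7% at 0.6 to 0.65, and stands at 98.3% where 90 to 100% of words are repeated.

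The 75 members without a peak outside repeated sequence, meaning under 50% of words repeated, mostly had shared peaks nearby. Within 50 kb of their TSS stood a median of 4 distal shared peaks, the same as for promoters with a shared peak, and the nearest shared peak was a median of 6459 bp away. However, 4 of the 75 had no shared peak within 50 kb. Some were partly repeated, such as Gm21738, with 34.2% of words repeated and the nearest shared peak 140739 bp away. The limit on unmapped reads given above holds for such promoters too. The 64 repeated members had a median of 0 distal shared peaks and a nearest shared peak 35088 bp away. Only 3 of the 139 members without a peak had a hotspot of either library in the window, namely Mnx1, Foxa1 and Prr23a3. Besides the genes named above, the 75 include Sim2, a basic helix-loop-helix PAS factor, with a CpG ratio of 0.915, and Rspo1, an enhancer of WNT signalling.

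Members with a replicate 1 peak only had moderate peaks. Their strongest peak had a median score of 52 (percentile 57.0), with the quartiles at 42 and 65.5, whereas the strongest replicate 1 peak of CpG-rich promoters with a shared peak had a median of 135 (percentile 97.9), with the quartiles at 122 and 142. The top of the range was Eya2, a transcription cofactor of muscle and sensory organs, at 94 (percentile 88.6). After it came Zfp541 at 86, Dlx6 at 85, Hoxb8 and 5730596B20Rik at 84, Hoxa6 at 83, Barhl2, Nbl1 and Gm5089 at 82, and Gata6 at 81. Nbl1 encodes a secreted BMP antagonist. Eya2 had 3 replicate 1 peaks, of 94, 65 and 34, the strongest 21 bp upstream of its outermost TSS.

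More than 1 peak was common in these windows. A single replicate 1 peak stood in 71 of the 151, 2 or more stood in 80, and Plce1 had 6. All 151 had a replicate 1 hotspot, 39 of them at the upper limit of the deposited −log10 q scale, while 6 (3.97%) had a replicate 2 hotspot. Over all replicate 1 peaks, the share that overlapped a replicate 2 peak was 37.6% at percentiles 50 to 60 and 90.5% at percentiles 80 to 90, the range that holds Hoxb8 and Dlx6. The strongest peak lay a median of 165 bp from the nearest TSS, and within 100 bp in 41.1% of the 151, against 61 bp and 68% for promoters with a shared peak. The Barhl2 peak printed above lay 485 bp upstream of its TSS and the Dlx6 peak 423 bp upstream.

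**Figure D5:**
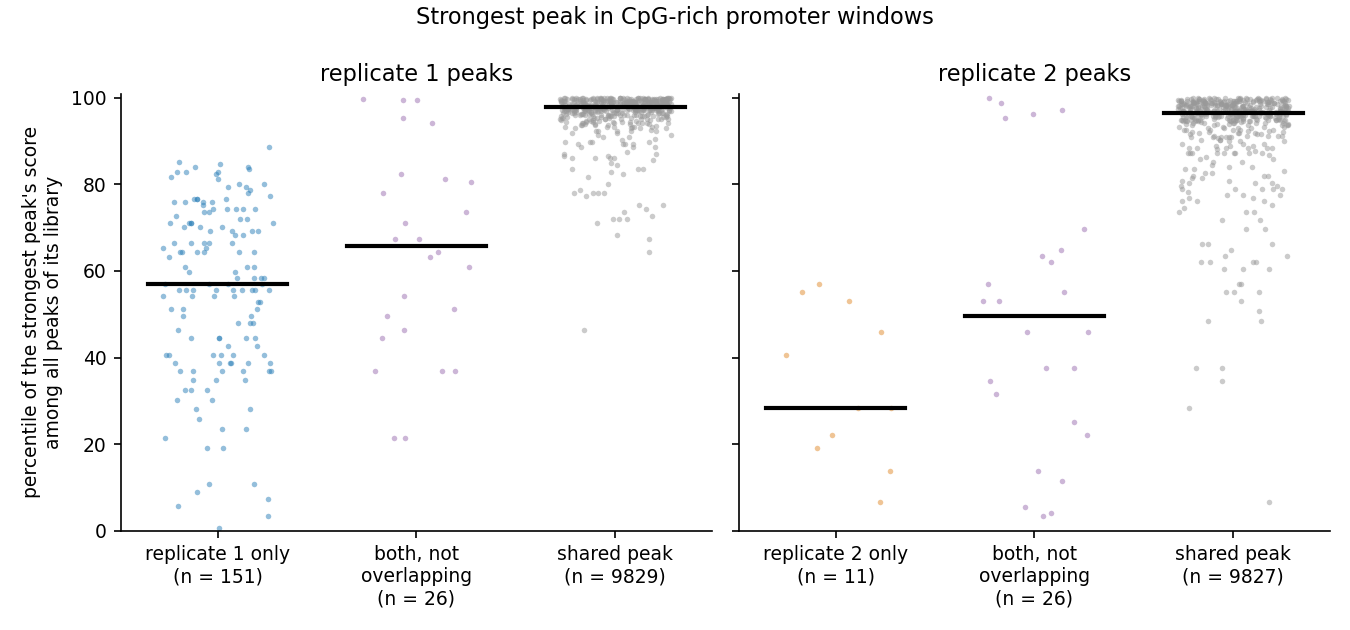
Percentile of the strongest peak's score among all peaks of its own library (y axis) in CpG-rich promoter windows, 1 point per promoter, with bars at the medians. Of promoters with a shared peak, 500 drawn at random are shown. Medians are 57.0 for replicate 1 only and 28.3 for replicate 2 only, against 97.9 and 96.5 for promoters with a shared peak.

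The 11 members with a replicate 2 peak only had peaks of low or middle rank in that library. Fam83f had the highest score, 33 (percentile 57.0), followed by Tmem54 at 32. Lower scores included Tbx1 at 28, Hist2h3c2 at 26, Nags at 22, Rhcg at 20, Zfp296 at 17 and Pcdha1 at 13. The median percentile was 28.3. All 11 had a replicate 2 hotspot, 2 of them at the upper limit of the deposited scale. Of the 11, Tbx1 alone had a replicate 1 hotspot.

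Peaks of both libraries stood in 26 member windows without a shared peak. At 25 of them no peak in the window overlapped one of the other library. At Dmbx1 the replicate 2 peak did overlap a replicate 1 peak, whose midpoint lay 1015 bp from the TSS, outside the window. At 5 of them both strongest peaks were at or above percentile 90 of their library. Rps19 had 146 in replicate 1 and 128 in replicate 2, Rab8a, a GTPase of vesicle transport, 145 and 117, Ngdn, which encodes neuroguidin, 145 and 108, Cenps, a kinetochore and DNA repair protein, 119 and 103, and Dph6, an enzyme of diphthamide synthesis, 113 and 98. Their peaks were 150 bp wide and the nearest midpoints of the 2 libraries 180 or 200 bp apart, inside a hotspot shared by the libraries. At these 5 promoters both libraries had a strong peak, and the rule on overlap alone made them members. At the other 21 the peaks were weaker, as at Foxd1, Wnt6, Dll4 (74 in replicate 1 and 25 in replicate 2) and Kcnq1 (40 and 10). The gap between the nearest midpoints of the 2 libraries in a window had a median of 290 bp and ran from 160 to 1480 bp.

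Members were found next to each other on the chromosome in 29 runs of consecutive protein-coding genes, which held 88 of the 327. The longest run, 7 genes around Phf10 and Ermard on chromosome 17, had a median of 99.6% repeated words. The other runs of 4 or more, such as 6 histone genes on chromosome 13 (100%), had medians from 96.8 to 100%, except the run of Hoxd11, Hoxd10, Hoxd9 and Hoxd8 on chromosome 2, which had 0%. Shorter unrepeated runs were Hoxb9, Hoxb8 and Hoxb7, Hoxc13, Hoxc12 and Hoxc11, Hoxa11, Hoxa13 and Evx1, the pairs Dlx1 and Dlx2 and Dlx6 and Dlx5, and Nkx2-4, Nkx2-2 and Pax1. The windows of 24 members overlapped another member's window, so their peaks were in part the same peaks.

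The number of TSSs, which sets how wide the window is and so bears on the rule, was lower in members. A single annotated TSS was listed for 60.9% of members, against 45.7% of CpG-rich promoters with a shared peak. The median gene length was 11.1 kb, against 27.4 kb. The GC content around the TSS was close, at medians of 60.1% and 61.5%. The CpG ratio, which the rule used, had a median of 0.704, against 0.788. By ratio, 96 of 1103 promoters (8.7%) at 0.6 to 0.65 were members, 35 of 2700 (1.3%) at 0.8 to 0.9 and 4 of 432 (0.926%) at 1.0 and up.

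Some members lay close to the limits of the rule. Just inside the CpG limit were Dll4 at 0.6008, Ly6k at 0.6012 and Tdgf1 at 0.6018, and just outside it, without a shared peak, were Rnf212b at 0.5972, Oxct2a at 0.5980 and Gm13290 at 0.5980. Just inside the distance limit were Mnx1, Shc3 and Foxa1, with a shared peak 1001, 1007 and 1010 bp from the TSS. Just outside it were Fam78a and H2-Q2, whose nearest shared peak lay 988 and 989 bp away.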

How the data were processed

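DNase-seq of 2 biological replicates was analysed. The authors called peaks and hotspots on each replicate alone, from filtered mm10 alignments, as the deposited sample notes state. The deposited peak score is a whole number up to 150, and the deposited hotspot value is a −log10 q-value from 1.3, set to 100 past a cap. Aligner, caller, threshold and read depth: not given in the sources used here. Scores were not compared across libraries but ranked within each.

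Windows, CpG ratios, motif letters and repeated 31-base words were computed from GENCODE M21 basic and the RefSeq FASTA of GRCm38.p6 (Python 3.11.15, pandas 2.3.3, pysam 0.24.0, numba 0.67.0, scipy 1.17.1), and the member calls were checked on simulated peaks. With 1 group there was no test; shares carry Wilson 95% intervals. Replicates differ as biosamples, but only a single donor label is given.

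The members and gene lists were chosen with earlier results of these data known, and the repeat measure after the members were seen. Genes were named as the 2 highest in CpG ratio without a peak, or in score percentile, of each class with at least 3 members, the 10 highest of all members, those at the limits of the rule, and class members; a few genes so chosen are not reported here. Alternatives changed the window, CpG limit, TSS set, overlap, score limit and feature type.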

Additional observations from a re-analysis of the deposited data

How the results depend on the processing

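The count of 327 promoters without a shared peak stayed within 1.5 times, from 253 to 475, under 13 of 15 settings that kept both libraries, and moved to 499 at a CpG ratio of 0.5 and 107 at 0.75. At 0.75 the members without a peak came to 40, those with a replicate 1 peak only to 53 and those with a replicate 2 peak only to 3, and at 0.5 those without a peak came to 232. With the stronger peaks of each library (at or above its median score), 234 had no peak. With repeated promoters left out, 75 had no peak, against 139, since 64 promoters were removed. A window of 500 bp gave 17 with a replicate 2 peak only, against 11. With 1 library left out, the promoters without a peak in the remaining library ranged from 150 (replicate 1) to 292 (replicate 2). Hotspots in place of peaks gave 304 members, 301 of them among the 327. Leaving out repeated promoters, using every TSS of the comprehensive annotation and counting midpoints within 300 bp as shared were chosen after seeing the data.

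Of 434 class shares under these settings, 412 stayed inside the Wilson interval of the value in the report. Hox groups 6 to 13 stayed inside it under all 15. Germ cell and meiosis genes came to 23.1% at a CpG ratio of 0.75. Without repeated promoters, histones came to 4.65%, against 15.6%, and predicted gene models to 4.79%, against 15.2%. Over 500 bases either side of the TSS, the ETS letters stood in 11.3% of members with a replicate 1 peak only, against 31.8% of promoters with a shared peak. Of 48 motif shares compared at this width or at a CpG ratio of 0.75, 24 left the interval. The wider window contains the narrower one, so a share at this width could only stay or rise. Leaving the interval there reflects window length as well. No paired analysis was possible because there is only 1 group. Read depth is unknown, so a peak below the detection limit of replicate 2 and a closed site cannot be told apart.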
